A study of Arabidopsis thaliana with 24 samples.

Results

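The nitrogen response of illuminated WT-sib seedlings of Arabidopsis was read from 6 of the 24 ATH1 arrays of the series, as 3 WT-sib N+L+ arrays against 3 WT-sib N-L+ arrays, both chosen by their titles. All 24 arrays came from Columbia (Col-0) seedlings raised for 14 days on 0.5 mM KNO3 with sucrose under long days. For the 2 h treatment, given when the light period began, N+L+ seedlings received 20 mM KNO3 plus 20 mM NH4NO3 in light, and N-L+ seedlings received medium with KCl in light. N+L- and N-L- seedlings had the same media under aluminium foil, and the other genotype, bzip1-1, carries a T-DNA insertion in the single exon of the bZIP1 transcription factor gene. WT-sib is a sibling line without the insertion, taken from a backcross of a heterozygous plant. The 3 arrays per group are labelled as biological replicates, and the study's methods describe them as independent experiments. Whole seedlings were harvested, so fewer cells of a type and less RNA per cell cannot be told apart. N+ medium held nitrate and ammonium together, and their effects cannot be told apart either.

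Nitrate is both a nutrient and a signal in plants. It is taken up by transporters of the NRT families, reduced to nitrite by nitrate reductase (NIA1, NIA2) and to ammonium by nitrite reductase (NIR1), and the ammonium is built into glutamine, glutamate and asparagine. NIN-like proteins (NLP) carry the nitrate signal to the nucleus, and nitrate soon raises transcripts of further regulators, among them LOB-domain repressors (LBD37 to LBD39), GARP-type repressors (HHO, also called NIGT1) and BTB/TAZ scaffold proteins (BT).

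Values are the deposited MAS 5.0 signal, which has no fixed unit, and changes are differences of log2 signal, N+L+ minus N-L+. A transcript is said to have risen or fallen where its adjusted p was under 0.05 in a fit across all 22746 probe sets. The trimmed mean of every array was 500, and the median signal was 197 to 203 on the N+L+ arrays and 206 to 216 on the N-L+ arrays. The median change over all probe sets was -0.06, with 43.3% above 0.

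The WT-sib N-L+ array of replicate 1 stood apart and was left out in a second fit throughout. Its log2 signal correlated at 0.910 and 0.877 with the other N-L+ arrays, which correlated at 0.925 with each other, against 0.907 to 0.927 among N+L+ arrays. With the N+L+ array of replicate 1 it correlated at 0.928, and with those of replicates 2 and 3 at 0.895 and 0.877. The transcript AT3G56290 had a signal of 7861 there, while the remaining 5 illuminated WT-sib arrays gave 1656 to 2687. On the bzip1-1 N-L+ array of replicate 1 its signal was 1806, while the remaining 5 illuminated bzip1-1 arrays gave 6747 to 11651. For this transcript each of these arrays thus lay in the range of the other genotype, and whether the 2 were exchanged was not tested. No probe set was named for bZIP1 in the annotation used here, so the genotype labels were not checked against the mutated gene itself. Summed signal of 5 leaf photosynthesis probe sets was 80245, 98082 and 74398 on the N+L+ arrays and 44950, 98099 and 75190 on the N-L+ arrays, so N-L+ replicate 1 was the low one. Summed signal of 3 root-preferential probe sets was 12682, 7360 and 8865 on the N+L+ arrays, against 15014, 10581 and 8418 on the N-L+ arrays. The root probe set of PYK10 alone gave 12419, 7191 and 8772 on the N+L+ arrays, against 14450, 10289 and 8209 on the N-L+ arrays. It made up most of each root sum. By PYK10 and the leaf probe sets, both organs were present on every array. Of the 8 leaf and root probe sets, 0 passed the test.

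After 2 h of nitrogen in light, 24 probe sets rose (0.106% of all tested) and 2 fell (0.00879%). The transcripts that rose included 6 nitrate-response regulators, the amide genes ASN2 and GAT1_2.1, the siroheme enzyme UPM1 and the transcription factor genes DREB2A and WRKY6. Among these 24, the log2 change lay between 1.25 and 5.20, and all of them were higher in each of the 3 same-numbered pairs. On none of the 26 did the groups overlap, a property shared by 3.54% of all probe sets in the higher and 5.51% in the lower direction. The 26 were chosen by their p on these same arrays, which favours both properties, so neither is further evidence. At an unadjusted p under 0.01 there were 403 probe sets (1.77%), 205 higher (0.901%) and 198 lower (0.87%). That even split moved to 63.9% higher after quantile normalization and 66.6% after scaling to a common median.

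The number of calls differed between fits. With the replicate number as a block, 62 rose (0.273%) and 12 fell (0.0528%), including all 26. Without the N-L+ array of replicate 1, 44 rose (0.193%) and 2 fell, and 22 of the 26 were among them. The 4 that no longer passed were the glutaredoxin gene AT3G62930 (adjusted p = 0.076), AT5G07860 (0.076), AT2G28320 (0.13) and AT5G30470 (0.076). Of the 26, 12 still passed without the N-L+ array of replicate 2, 16 without that of replicate 3, and 19, 13 and 17 without the N+L+ arrays of replicates 1, 2 and 3. UPM1, DREB2A, SERAT2;1, SAG21 and AT4G01870 each lost their call without either of these N-L+ arrays and without the N+L+ array of replicate 1 or 2. In a fit of the 6 arrays alone, with 4 residual degrees of freedom, 0 passed, with a smallest adjusted p of 0.099 and 904 probe sets at an unadjusted p under 0.05.

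**Figure D1:**
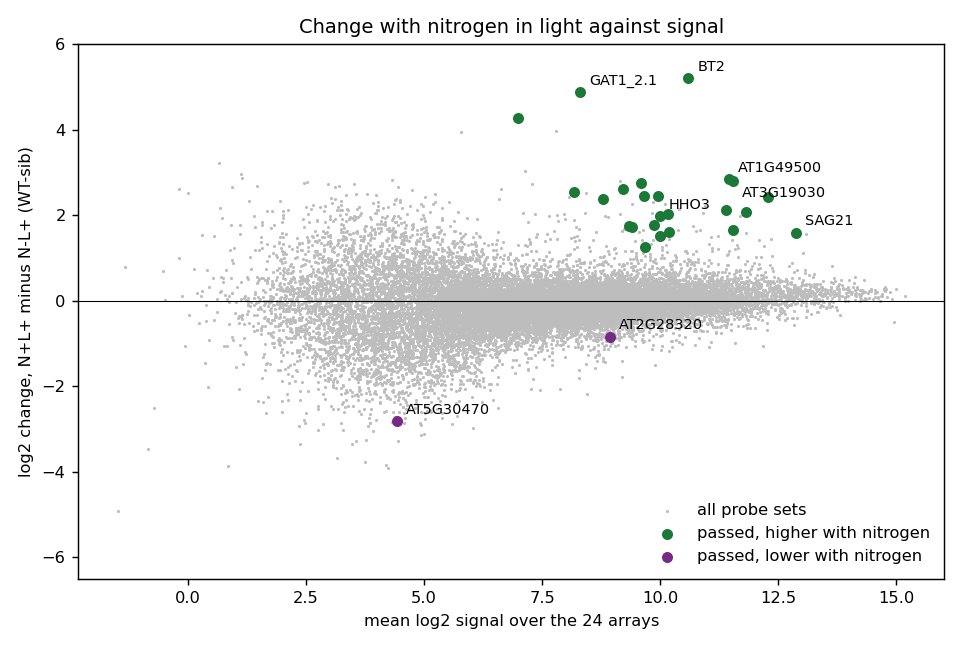
Log2 change, N+L+ minus N-L+ in WT-sib, against mean log2 signal over the 24 arrays, 1 point per probe set. The 24 probe sets that rose stand above the cloud at middle and high signal, and of the 2 that fell AT5G30470 lies at low signal, where the cloud is widest.

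Regulators of the nitrate response gave the most calls of all lists. Of 17 probe sets on this list, 6 rose, 0 fell and 11 did not pass, where 0.106% of all probe sets rose. The median change was 0.85 against -0.06 over all probe sets. This list, like the others, was chosen with earlier results of these data known. For 12 of the 17 the name came from the study's lists of genes regulated on these arrays, so the count is not independent evidence of the direction. Those not named by either source could not be counted.

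BT2, a BTB/TAZ scaffold protein that acts in nitrogen-use efficiency, had the largest measured change of all that passed. Its signal was 1388, 1034 and 3312 on the N+L+ arrays, against 12.2, 85.4 and 91.9 on the N-L+ arrays. Every N+L+ array was far above every N-L+ array, and the lowest value was that of the array which stood apart. All 3 N-L+ values were under 123, the 40th percentile of mean signal used here as the limit for dim, and 12.2 was under the 10th percentile of its array (12.7), so the size of the change rests on values near the lower end of each array. The log2 change was 5.20 (SE 0.80, adjusted p = 0.005), and 4.25 without that array (adjusted p = 0.020). Its relatives BT5 and BT3 did not pass, at 0.85 and -0.28.

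LBD39 and LBD37 encode LOB-domain proteins that repress anthocyanin and nitrogen-response genes. LBD39 had signals of 997, 948 and 1282 with nitrogen, against 92.1, 205 and 283 without, a change of 2.61 (SE 0.41, adjusted p = 0.0068). LBD37 had 2934, 1619 and 1624 on the N+L+ arrays and 509, 383 and 596 on the N-L+ arrays, a change of 2.02 (SE 0.28, adjusted p = 0.0016). For both genes the groups were well separated. The third member, LBD38, had 2176, 1321 and 2942 with nitrogen, against 1042, 687 and 1036 without. Its groups did not overlap either, but its change of 1.17 passed only with the replicate block (adjusted p = 0.48 without and 0.015 with the block).

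HHO3 and HHO2 encode GARP-type repressors that bind nitrate-uptake genes. HHO3 gave even values within each group, at 1313, 1065 and 1409 on the N+L+ arrays and 380, 283 and 297 on the N-L+ arrays. The change was 1.98 (SE 0.21, adjusted p = 8.8e-05). HHO2 had 1064, 1363 and 1091 with nitrogen, against 402, 451 and 376 without, a change of 1.51 (SE 0.21, adjusted p = 0.0015). In both genes a wide gap lay between the lowest N+L+ value and the highest N-L+ value. HHO5 stood at 1.57 with a wider spread and did not pass (adjusted p = 0.45), and HHO1 and HHO6, both with dim signal, were at -0.25 and -0.06.

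CIPK3, a protein kinase that is activated by calcium sensors of the CBL family, had 902, 826 and 1532 on the N+L+ arrays, against 288, 290 and 374 on the N-L+ arrays. The change was 1.73 (SE 0.26, adjusted p = 0.0037). CIPK23, the kinase that phosphorylates the nitrate transporter NRT1.1, stood at 0.03. The NIN-like proteins with a named probe set, NLP4, NLP5 and NLP8, were at -0.77, -0.82 and -0.63 and did not pass (adjusted p = 0.64, 0.65 and 0.93). NLP8 had 365, 409 and 304 with nitrogen, against 1039, 483 and 334 without, and was at -0.17 without the N-L+ array of replicate 1.

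**Figure D2:**
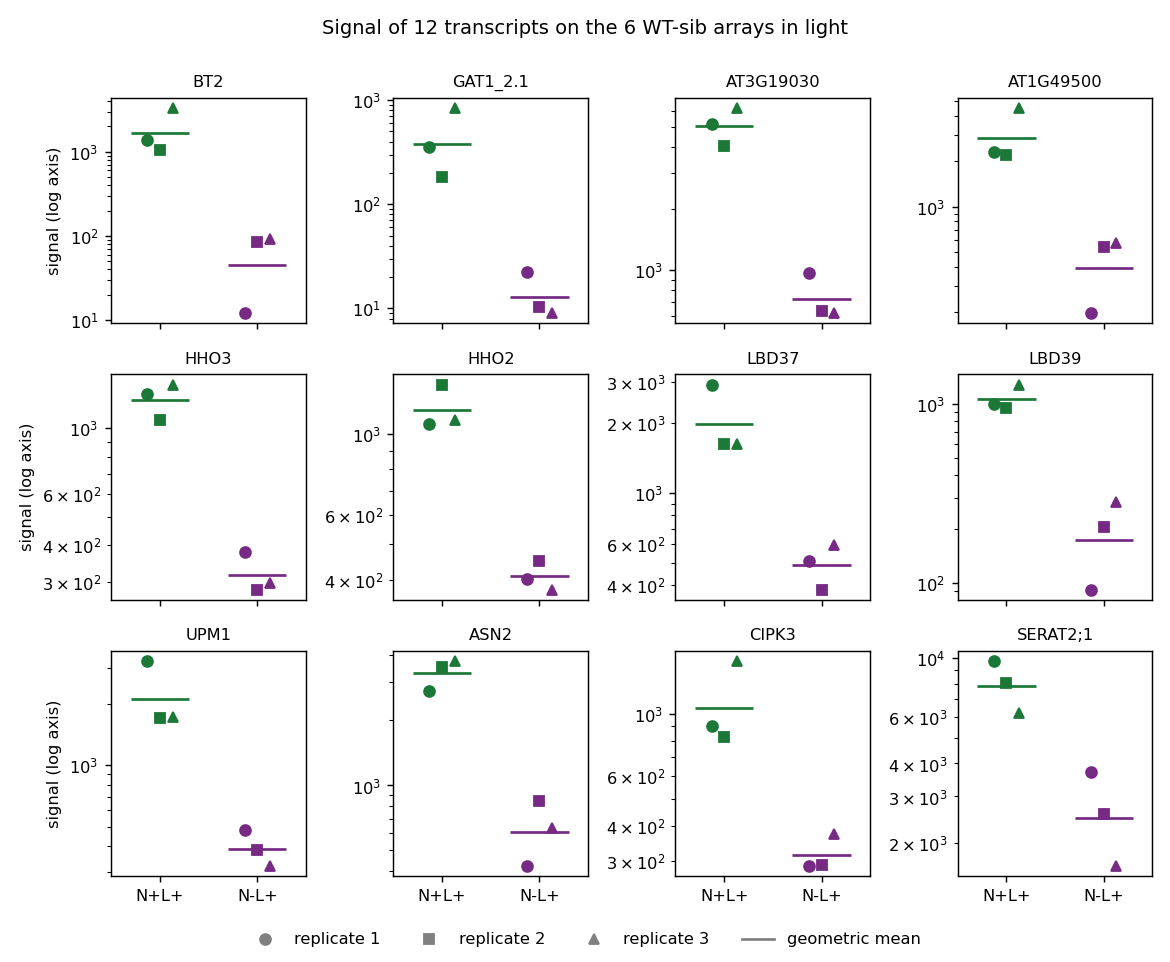
Signal of 12 transcripts that rose, on a log axis, for the 3 WT-sib N+L+ arrays (left) and the 3 WT-sib N-L+ arrays (right) in each panel, with the symbol giving the replicate number and the line the geometric mean. In every panel all N+L+ points lie above all N-L+ points, and for BT2, AT1G49500, LBD39 and ASN2 the N-L+ point of replicate 1 lies clearly below the others.

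Of 8 probe sets for enzymes and cofactors of nitrate and nitrite reduction, 1 rose (0.106% over all probe sets) and 7 did not pass. The median change of this list was 1.02, and the groups did not overlap in the higher direction for 7 of the 8, against 3.54% of all probe sets. Names of 7 of the 8 came from the study's lists of genes regulated on these arrays. Neither count is therefore independent evidence.

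UPM1 makes the precursor of siroheme, the cofactor of nitrite reductase. It had signals of 3224, 1708 and 1726 on the N+L+ arrays, against 483, 382 and 320 on the N-L+ arrays, and a change of 2.44 (SE 0.43, adjusted p = 0.021). NIR1, nitrite reductase itself, had 9481, 6292 and 4776 with nitrogen, against 2239, 1336 and 964 without. Its change of 2.21 was nearly as large, but its standard error over all groups was 0.69 and its adjusted p 0.45. The same-numbered pairs of NIR1 differed by 2.08, 2.24 and 2.31, and its adjusted p with the replicate block was 0.091. NIA1, a nitrate reductase, had 7345, 7881 and 6619, against 2047, 2257 and 1155 without nitrogen. At 2.06 (SE 0.53) it passed only with the replicate block (adjusted p = 0.22 without and 0.022 with the block). NIA2, the other nitrate reductase, had 15852, 18542 and 18110 with nitrogen, against 9622, 10699 and 9440 without. Both groups of NIA2 were tight and did not overlap. Its smaller change of 0.82 (SE 0.20) gave an adjusted p of 0.18 without and 0.061 with the block.

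The nitrate-responsive haemoglobin gene GLB1 stood at 1.23 and did not pass. Of the molybdenum cofactor genes, CNX6 was at 0.76, CNX1 at 0.39 and CNX2 at -2.34, none of which passed. CNX2 had signals of 26.8, 8.48 and 8.27 with nitrogen and 71.7, 45.7 and 75.2 without, which is dim on this platform.

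Genes listed under reductant supply gave 0 calls among 8 named probe sets from 18 loci, with a median change of 0.66. Names of 5 of the 8 came from the study's lists of genes regulated on these arrays. G6PD3, a plastid glucose-6-phosphate dehydrogenase, had 1756, 1185 and 1216 on the N+L+ arrays and 380, 214 and 213 on the N-L+ arrays. The groups were separated on every array, with same-numbered pairs differing by 2.21, 2.47 and 2.51. The change of 2.4 (SE 0.73) did not pass (adjusted p = 0.43 without and 0.13 with the replicate block). The root-type ferredoxin reductase RFNR1 and the phosphogluconate dehydrogenase PGD3 were at 1.60 and 1.31, and PGD2, another phosphogluconate dehydrogenase, was at -0.45. GPT2, a glucose-6-phosphate translocator, had 1282, 1920 and 170 with nitrogen and 4611, 2236 and 1187 without, with overlapping groups and a change of -1.62 (adjusted p = 0.86).

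Nitrate transport genes gave 0 calls. None of the 7 named probe sets from the 16 loci on this list passed, with a median of -0.12 and a range of -1.09 to 0.49. NRT1.1, the dual-affinity transporter and nitrate sensor, had 3498, 3619 and 2451 on the N+L+ arrays, against 5345, 4863 and 4306 on the N-L+ arrays. These groups were apart, yet the standard error of the change of -0.62 was also 0.62. NRT3.1, the partner protein of the high-affinity transporters, was at 0.49 and NRT2.5, a transporter of starved plants, at -1.09. Without the N-L+ array of replicate 1 these were 0.84 and -0.53.

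In ammonium assimilation and amide synthesis, 2 of 7 named probe sets from 22 loci rose, where 0.106% of all probe sets did. For 5 of the 7 the name came from the study's lists of genes regulated on these arrays. The count is therefore not independent evidence. The median change was 0.63, and 1.03 without the N-L+ array of replicate 1. ASN2, an asparagine synthetase, had 2726, 3541 and 3758 with nitrogen, against 423, 851 and 636 without, a change of 2.44 (SE 0.39, adjusted p = 0.0068). Its relative ASN1, known for induction in the dark, had 1468, 1879 and 1384 on the N+L+ arrays and 566, 1974 and 918 on the N-L+ arrays. These overlapped, and its change of 0.63 did not pass (adjusted p = 0.96) and was 0.22 without the N-L+ array of replicate 1.

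GAT1_2.1, a member of the class I glutamine amidotransferase family, had the second largest change. Its signal was 351, 181 and 842 with nitrogen and 22.4, 10.3 and 9.07 without, a change of 4.88 (SE 0.73, adjusted p = 0.0044). All N-L+ values were dim, so the size of this fold rests on values near the lower end of each array. A second probe set of the same locus was dim on each N+L+ and N-L+ array of WT-sib. It had 15.8, 33.8 and 81.7 with nitrogen and 43.2, 9.69 and 30.6 without, and gave 0.59 (SE 0.81, adjusted p = 0.98). The other members, GDH2, GLT1 and AMT1;2, were at 0.83, 0.38 and -0.22, with GDH2 at 1.27 without that array.

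**Figure D3:**
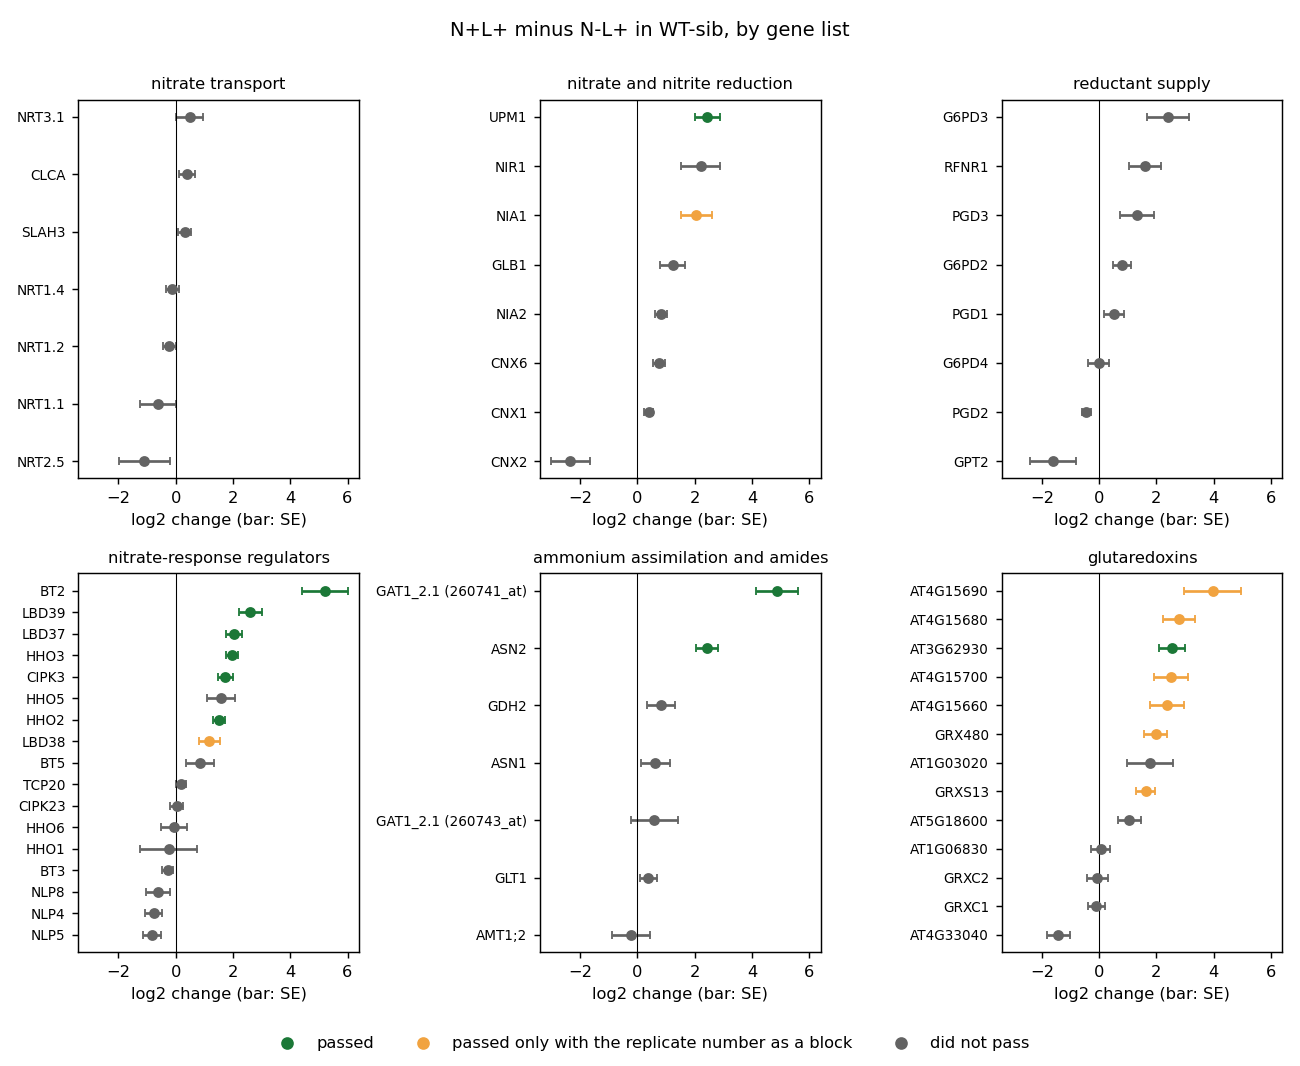
Log2 change with standard error, N+L+ minus N-L+ in WT-sib, for every named probe set of 6 gene lists, 1 panel per list. Transcripts that passed are green, those that passed only with the replicate block are orange and the others are grey. The regulators and glutaredoxins hold most of the coloured points, and nitrate transport and reductant supply hold none.

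Other transcripts that rose stood on none of the lists above. SERAT2;1, a serine acetyltransferase that makes the precursor of cysteine, had 9740, 8069 and 6188 with nitrogen, against 3697, 2570 and 1635 without. The change was 1.66 (SE 0.30, adjusted p = 0.024). UGT73B1, a glycosyltransferase, had 1145, 1273 and 1568, against 460, 335 and 365 without nitrogen, a change of 1.78 (SE 0.24, adjusted p = 0.0015). In both, the N-L+ array of replicate 1 was the highest of its group and still below all N+L+ arrays.

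DREB2A and WRKY6 encode transcription factors of drought and of defence and phosphate responses, and SAG21 encodes a small late-embryogenesis-abundant protein. DREB2A had 2284, 2873 and 994 on the N+L+ arrays and 620, 315 and 236 on the N-L+ arrays, a change of 2.38 (adjusted p = 0.029). WRKY6 had 1547, 1886 and 2379 with nitrogen, against 1070, 530 and 438 without, a change of 1.60 (adjusted p = 0.029). SAG21 had 11834, 10807 and 11400, against 6824, 3796 and 2078 without nitrogen, a change of 1.59 (adjusted p = 0.048). All 3 had their highest N-L+ value on replicate 1, and without that array their changes were 2.78, 1.98 and 2.01.

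Several loci without a symbol also rose. AT3G19030 had 5199, 4026 and 6195 on the N+L+ arrays, against 973, 637 and 621 on the N-L+ arrays, and the smallest p of all probe sets (change 2.80, SE 0.26, adjusted p = 2.2e-05). AT1G49500 had 2313, 2206 and 4522 with nitrogen, against 198, 537 and 579 without (2.85, adjusted p = 0.0015). AT1G76600 had 8892, 9144 and 12576, against 2297, 1462 and 1944 without nitrogen (2.43, adjusted p = 0.0015). The study's lists call all 3 unknown proteins, and for each the lowest N+L+ value exceeded the highest N-L+ value several times over.

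AT5G14730, also listed as unknown, had 2395, 2558 and 2377 with nitrogen and 727, 237 and 269 without, a change of 2.76 (adjusted p = 0.0097). AT5G19120 had 1156, 1152 and 2698, against 295, 291 and 495 without nitrogen, a change of 2.13 (adjusted p = 0.0068). AT4G01870 had 10342, 9465 and 9458, against 3655, 1801 and 1885 without nitrogen, a change of 2.07 (adjusted p = 0.026). Only AT4G01870 and AT5G14730 of these 3 had a clearly higher value on the N-L+ array of replicate 1.

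The lowest change among those that rose belonged to AT5G07860, with 886, 932 and 1388 on the N+L+ arrays and 389, 383 and 570 on the N-L+ arrays (1.25, adjusted p = 0.022). Besides these, 2 probe sets with no gene name here rose. One had 61.4, 262 and 437 with nitrogen, against 9.67, 6.97 and 14.2 without, a change of 4.28 (adjusted p = 0.012) from values that were dim without nitrogen. The other had 449, 337 and 425 with nitrogen, against 164, 116 and 87.8 without, a change of 1.75 (adjusted p = 0.043).

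Only AT2G28320 and AT5G30470 fell. The lower calls moved with the scaling, with 22 higher and 0 lower after quantile normalization and 28 higher and 1 lower, AT5G30470, after scaling to a common median. AT2G28320 had 436, 309 and 510 on the N+L+ arrays, against 785, 766 and 656 on the N-L+ arrays, a change of -0.84 (SE 0.16, adjusted p = 0.048). AT5G30470, a pseudogene in the RefSeq annotation, had 11.9, 3.90 and 4.99 with nitrogen and 43.7, 51.3 and 35.9 without, a change of -2.81 (SE 0.53, adjusted p = 0.030). Its values on all 6 arrays were dim. AT2G28320 no longer passed in 12 of 17 alternative fits, and AT5G30470 in 11 of 16.

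The probe sets nearest the threshold differed little in their p. Just inside lay 1 probe set without a gene name (adjusted p = 0.043), AT2G28320 and SAG21 (0.048 each), and just outside lay the glutaredoxin gene AT4G15680 (0.052), another unnamed probe set and GRXS13 (0.057 each).

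Glutaredoxins, small redox proteins that use glutathione, were looked at as a family after their values had been seen. Of 13 probe sets with this annotation, 1 rose without the replicate block (0.106% over all probe sets) and 7 with it (0.273%), and the median change was 1.79. AT3G62930 rose, with signals of 370, 239 and 925 on the N+L+ arrays and 52.5, 58.8 and 136 on the N-L+ arrays (2.54, SE 0.45, adjusted p = 0.019), and did not pass without the N-L+ array of replicate 1 (2.28, adjusted p = 0.076). AT4G15690, AT4G15680, AT4G15700 and AT4G15660 had changes of 3.96, 2.79, 2.51 and 2.38 and passed only with the block, and they lie near each other on chromosome 4 in the TAIR10.1 annotation.

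AT4G15690 had 146, 426 and 782 on the N+L+ arrays, against 1.98, 43.8 and 149 on the N-L+ arrays. These groups overlapped, and its lowest value was again that of the N-L+ array of replicate 1. Without that array its change was 2.18 (adjusted p = 0.41), and those of AT4G15680, AT4G15700 and AT4G15660 were 2.13, 1.97 and 1.73, none of which passed. AT4G15680 had 587, 617 and 2328 with nitrogen, against 54.3, 162 and 290 without. As copies of close sequence, the chromosome 4 genes may share probes, so their separate values are uncertain. GRXS13 had 1193, 1540 and 1861 on the N+L+ arrays and 446, 458 and 574 on the N-L+ arrays, a change of 1.62 (adjusted p = 0.00018 with the block). GRX480, a glutaredoxin of salicylate signalling, passed with the block and without the N-L+ array of replicate 1. Not all members went up, since AT4G33040 stood at -1.42 and GRXC1 and GRXC2 near 0, none of which passed.

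With the replicate block, 48 more probe sets passed, 38 higher and 10 lower. Those higher included NIA1, LBD38, the trehalose-phosphate synthase homologue TPS9 (1.39), the nematode-resistance homologue HSPRO2 (1.97), the gibberellin-regulated GASA6 (1.95), the kinase gene MAPKKK14 (1.88), the calcium pump ACA4 (1.26) and the transcription factor gene MYB30 (1.03). Among those lower were the cation/calcium exchanger CAX7, the polyamine transporter PUT4, the inositol-phosphate synthase MIPS2 and the maltose-metabolising glucanotransferase DPE2.

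HSPRO2 had 1377, 2218 and 5477 on the N+L+ arrays, against 763, 353 and 1026 on the N-L+ arrays (adjusted p = 0.10 without and 0.0083 with the block). Both groups had their highest value on replicate 3, and they did not overlap. GASA6 had 742, 388 and 367 with nitrogen, against 73.3, 188 and 132 without, and in bzip1-1 366, 374 and 393 with nitrogen, against 303, 364 and 186 without. Its change of 0.46 in bzip1-1 was the smaller one, and the difference of 1.49 (SE 0.66) had an adjusted p of 1.00. That difference uses the N-L+ arrays of replicate 1, at 73.3 in WT-sib and 303 in bzip1-1. Its value had they been exchanged was not tested. MYB30 had 640, 565 and 677 on the N+L+ arrays and 217, 317 and 420 on the N-L+ arrays, without overlap. GASA6 and MYB30 had their lowest WT-sib value on the N-L+ array of replicate 1. Without that array HSPRO2, GASA6 and MYB30 changed by 2.09, 1.58 and 0.78 and did not pass (adjusted p = 0.14, 0.45 and 0.25).

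CAX7 had 404, 730 and 684 with nitrogen, against 1917, 1471 and 1610 without, a change of -1.50 (adjusted p = 0.18 without and 0.0075 with the block). MIPS2 had 1429, 2141 and 1274 on the N+L+ arrays and 3554, 3138 and 2505 on the N-L+ arrays, a change of -0.95 (0.44 without and 0.029 with the block). DPE2 had 576, 930 and 760, against 1232, 1314 and 1325 without nitrogen, a change of -0.80 (0.20 without and 0.035 with the block). In all 3 the groups were separated. Without the N-L+ array of replicate 1 the changes of CAX7, MIPS2 and DPE2 were -1.39, -0.83 and -0.83, and none passed (adjusted p = 0.40, 0.68 and 0.30).

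A second set of 24 probe sets passed without the N-L+ array of replicate 1 but not with all arrays, 22 higher and 2 lower, and 9 of them also passed with the block. In 22 of the 24, that array had the highest N-L+ signal, which choosing probe sets by leaving this array out favours. They included the zinc-finger genes ZAT12 and ZAT10, SIB1, GRX480, NAC102, the glutathione transferases GSTU7 and GSTU11, the glycosyltransferase UGT73B5 and the inositol oxygenase MIOX2. These names were chosen after their values had been seen.

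SIB1, a partner of WRKY33, had 1810, 1660 and 984 on the N+L+ arrays, against 1093, 197 and 205 on the N-L+ arrays. Replicate 1 of N-L+ overlapped the N+L+ range while the other pair of N-L+ arrays lay far below it, and the change was 2.02 with that array (adjusted p = 0.17) and 2.84 without it (0.0018). ZAT12 had 3044, 2759 and 2924 with nitrogen and 1501, 400 and 377 without, a change of 2.25 (0.10) and of 2.90 without the array (0.0048). GSTU11 had 471, 445 and 789, against 495, 127 and 127 without nitrogen, a change of 1.46 (0.43) and of 2.11 without the array (0.020). AT1G05575 had 1675 to 2154 on the N+L+ arrays, against 1194, 247 and 198 on the N-L+ arrays, with replicate 1 again the high one.

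**Figure D4:**
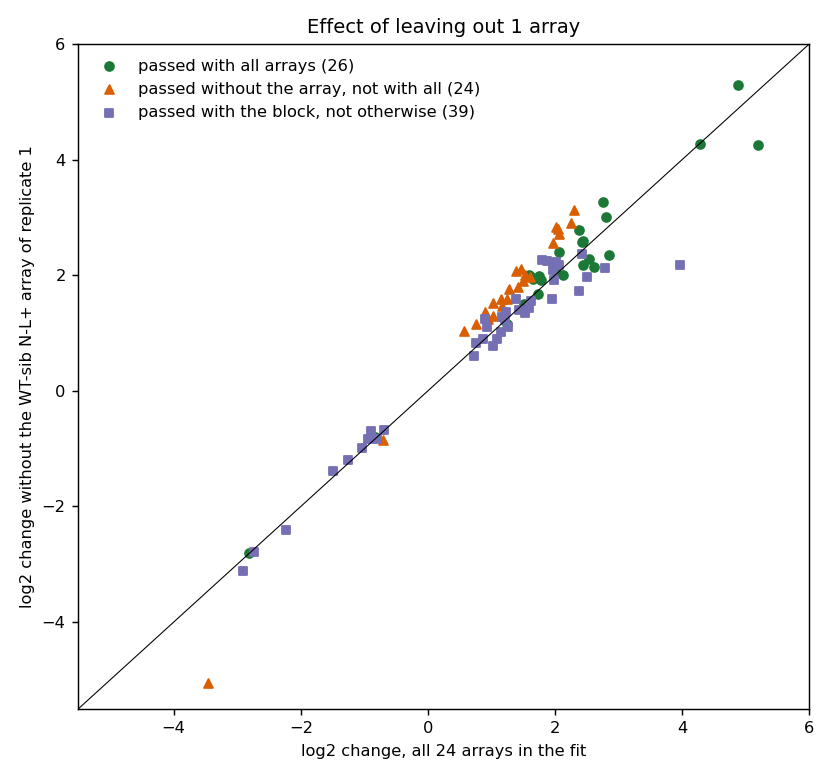
Log2 change, N+L+ minus N-L+ in WT-sib, without (vertical) and with (horizontal) the N-L+ array of replicate 1, for 26 probe sets that passed with all arrays, 24 that passed without that array but not with all, and 39 that passed with the replicate block and in neither other fit. The orange points on the positive side lie above the diagonal, and BT2 and AT4G15690 are the positive points furthest below it.

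The remaining lists gave 0 calls each. Of 7 defence and jasmonate probe sets, 6 were above 0 with a median of 0.77, led by ZAT12 and ZAT10. All 12 named probe sets of dark-inducible and starvation genes were above 0, with a median of 0.49 and a range of 0.21 to 1.39. Names of 7 of these came from the study's lists of regulated genes. Without the N-L+ array of replicate 1 the median was 0.29, and SEN1 (-0.51) and MCCA (-0.11) were below 0. TPS9 led this list at 381, 339 and 829 on the N+L+ arrays against 239, 155 and 161 on the N-L+ arrays, and passed only with the block (adjusted p = 0.0043). DIN3, a subunit of branched-chain keto acid breakdown, was at 1.07 and the autophagy gene ATG8E at 0.21.

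Flavonoid synthesis had 9 of 12 named probe sets below 0 and a median of -0.52. Names of 8 of the 12 came from the study's lists of regulated genes. C4H, an early enzyme of the phenylpropanoid path, had 3699, 3920 and 4185 with nitrogen, against 6276, 5181 and 6069 without. The groups were separated, and its change of -0.57 did not pass (adjusted p = 0.70). DFR was at -0.68 and the regulator MYB12 at -0.74. Both had their highest value on the N-L+ array of replicate 1, and without it they were at -0.07 and -0.37.

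IPT3, a nitrate-responsive enzyme of cytokinin synthesis, had 393, 586 and 329 on the N+L+ arrays, against 103, 197 and 185 on the N-L+ arrays, a change of 1.44 (adjusted p = 0.35). The 3 cytokinin response regulators ARR6, ARR15 and ARR16 were between 0.10 and 0.74. Of 9 ribosome biogenesis probe sets 8 were above 0, none beyond 0.41. Organic acid genes, 6 heat shock probe sets and 3 clock probe sets had medians of 0.28, 0.23 and -0.09 (0.18, 0.43 and -0.03 without the N-L+ array of replicate 1), and the 69 plastid-encoded probe sets a median of 0.04. That plastid median was -0.33 without the N-L+ array of replicate 1 and -0.05 after quantile normalization, so it has no settled sign. No phosphate or potassium starvation gene on the list had a named probe set.

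In the dark, nitrogen changed 2 probe sets in WT-sib, CIPK3 higher (0.0044% of all tested) and FRK1, a receptor kinase gene of flagellin responses, lower. Light and dark responses share no array. Of the 24 that rose in light, 23 were above 0 in the dark, and for 23 the change was larger in light. The medians were 2.26 in light and 0.88 in the dark, but these transcripts were chosen by passing in light, which favours a larger change there. The difference between the responses passed for 0 probe sets, with 642 (2.82%) at an unadjusted p under 0.05, and for 1, SERAT2;1, with the replicate block (0.0044%).

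SERAT2;1 had 2177, 1672 and 1660 on the N+L- arrays and 2037, 2413 and 1605 on the N-L- arrays, overlapping groups with a change of -0.13. Its response was thus larger in light by 1.78 (SE 0.42, adjusted p = 1.00 without and 0.0022 with the block). Among named transcripts that were not dim, UGT73B1 gave the smallest p of this difference, 1.57 (SE 0.33), followed by LBD37 (1.56) and AT3G19030 (1.46), and the tetraspanin gene TET5 had a difference of -1.26, all with adjusted p of 1.00.

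CIPK3 was the exception among those that rose. It had 1955, 1651 and 1582 with nitrogen in the dark, against 436, 307 and 304 without, a change of 2.32 (SE 0.26, adjusted p = 0.00031), against 1.73 in light. FRK1 had 356, 346 and 473 on the N+L- arrays and 2370, 3122 and 2409 on the N-L- arrays, a change of -2.75 (adjusted p = 0.0045). In light it had 593, 1150 and 1208 with nitrogen and 1167, 2441 and 2056 without, which overlapped narrowly and gave -0.94. NIA1 stood at 2.06 in light and 2.2 in the dark and passed in neither.

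Levels in light and dark differed widely for some of these genes. BT2 had 1034 to 3312 on the N+L+ arrays and 12.2 to 91.9 on the N-L+ arrays, but 11888 to 15103 on the N+L- arrays and 4644 to 9298 on the N-L- arrays. Nitrogen in light thus left BT2 below its level in darkness without nitrogen on every array. GAT1_2.1 had 1703, 4944 and 4096 on the N+L- arrays and 504, 500 and 1507 on the N-L- arrays. AT5G19120 had 1152 to 2698 on the N+L+ arrays, against 6067 to 11283 on the N-L- arrays. ASN2, SERAT2;1 and NIA1 had the reverse order, with every N+L+ value above every N+L- value. These light and dark levels are given as a description, and the effect of light itself was not tested here.

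In bzip1-1 seedlings in light, nitrogen raised 50 probe sets (0.220%), of which 22 were among the 24 of WT-sib. The 2 others, LBD39 (1.91, adjusted p = 0.063) and AT5G07860 (1.01, 0.071), were also above 0. The 22 are 91.7% of the WT-sib transcripts and 44.0% of those in bzip1-1, and the medians over the 24 were 2.26 in WT-sib and 2.27 in bzip1-1. By their labels the 2 genotypes share no array, though the selection of the 24 used the WT-sib values. Had the N-L+ arrays of replicate 1 been exchanged, each response would hold an array of the other genotype, and this was not tested. The difference between the genotypes passed for 0 probe sets with or without the block, and 432 (1.9%) had an unadjusted p under 0.05.

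BT2 had 2054, 1984 and 3000 with nitrogen in bzip1-1, against 6.65 to 153 without. The 153 was on the N-L+ array of replicate 1, the highest of its group. In WT-sib the N-L+ array of replicate 1 was the lowest, at 12.2 against 85.4 and 91.9. The change in bzip1-1 was 6.52 and the difference WT-sib minus bzip1-1 was -1.32 (SE 1.13). Both rest on N-L+ values near the lower end of the arrays, with 6.65 under the 10th percentile of its array (15.3). The difference also uses the N-L+ arrays of replicate 1 of both genotypes, and its value had they been exchanged was not tested. HHO3 had 1354, 1044 and 1554 in bzip1-1 with nitrogen, against 262, 203 and 373 without, with a difference of -0.28 (SE 0.30). For LBD37 the difference was -0.005 (SE 0.39), the nearest to 0 of the regulators that rose.

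AT5G30470 was the one called transcript with opposite signs. It had 30.2, 38.2 and 58.6 with nitrogen in bzip1-1 and 11.9, 21.7 and 6.70 without, a change of 1.76, and the difference of -4.58 (SE 0.74) had an adjusted p of 0.11. All of these values were dim. OSB3 (0.97), SURF1 (-0.89), SETH2 (0.99), HPR3 (-1.11) and POR (-0.91) gave the smallest p of the difference among named transcripts that were not dim, each with an adjusted p of 1.00.

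**Figure D5:**
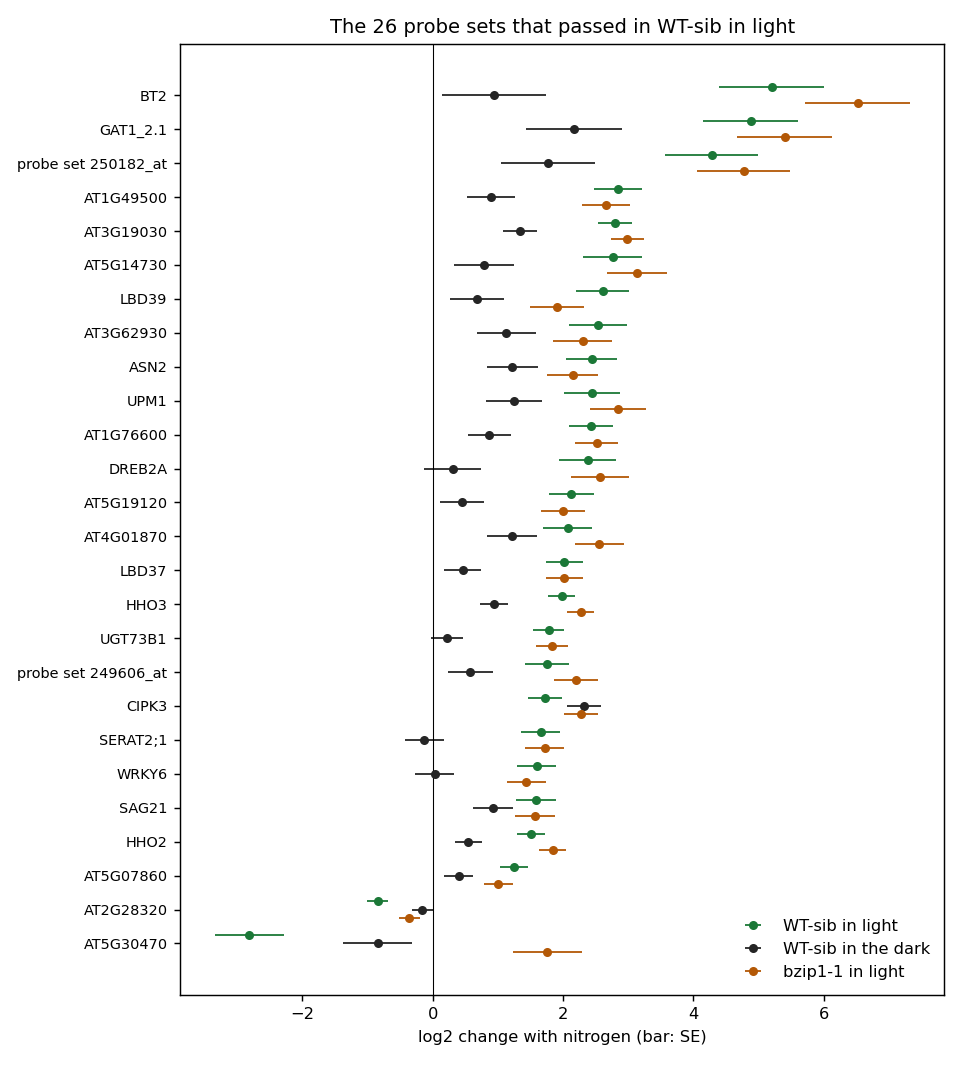
Log2 change with nitrogen and its standard error for the 26 probe sets that passed in WT-sib in light, shown for WT-sib in light (green), WT-sib in the dark (black) and bzip1-1 in light (orange). Green and orange points lie on the same side of 0 for all but AT5G30470, and the black points lie nearer 0 for all that rose except CIPK3.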

How the data were processed

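Total RNA of whole seedlings was hybridised to 24 ATH1 arrays, 3 in each of 8 groups given by the sample titles. The authors deposited 1 linear MAS 5.0 signal intensity per probe set and array, set so that the mean after trimming 2% at either end equals 500. An array gives no read depth, so precision is limited by the number of arrays, 3 per group. After 64 controls were left out, log2 signal without an offset was fitted over 8 group means on all 24 arrays with limma 3.58.1 in R 4.3.3 (16 residual degrees of freedom, trend in the prior variance). P-values are two-sided and adjusted by Benjamini-Hochberg over 22746 probe sets, with a threshold of 0.05.

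Same-numbered N+L+ and N-L+ arrays deviated together from their group means (r = 0.34, 0.14 and 0.34), so the number was used as a block in an alternative. Arrays of different number gave -0.34 to -0.0042. That is not separate evidence, since deviations from a group mean cancel out within the group. The platform's table gave 1 locus for 13436 probe sets and the study's lists for 874 more, and 7856 were unnamed. Neighbouring genes were read from the TAIR10.1 annotation. Dim means below the 40th percentile of mean log2 signal. Members and gene lists were chosen with earlier results of these data known. Named genes were the 15 highest and lowest changes that passed, listed genes, the 5 smallest p of each difference and 3 probe sets on either side of the threshold. Genes that passed in an alternative only, and the glutaredoxins, were named after their values were seen. The fit was tested on simulated data. Figures were drawn with matplotlib 3.10.9 in Python 3.11.15.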

Additional observations from a re-analysis of the deposited data

How the results depend on the processing

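The 26 transcripts that passed in WT-sib in light kept their direction in the 16 alternative fits that gave all of them a log2 change, as did the 25 that remained without dim probe sets. Except where the arrays were rescaled, this was fixed in advance, since the groups of all 26 did not overlap. The kept direction is therefore not further evidence. Of the 26, 9 still passed without the arrays of replicate 1 of all groups, 11 with the 12 WT-sib arrays, 12 without the N-L+ array of replicate 2 and 13 without the N+L+ array of replicate 2. Over 17 alternative fits the call was lost in 11 for AT4G01870, 10 each for SERAT2;1, SAG21 and AT5G07860, 9 for DREB2A and 8 each for UPM1, WRKY6 and AT3G62930, and in 1 each for BT2, HHO3, UGT73B1, AT3G19030 and AT1G76600. The count was 74 with the replicate block, 0 with the 6 arrays alone, 12 with the 12 WT-sib arrays, 16 by plain ANOVA on log2 signal, 15 by plain ANOVA on linear signal, 403 at an unadjusted p under 0.01 and 46 without the N-L+ arrays of number 1 of both genotypes. Leaving out each array of the comparison in turn gave 14 to 46, with 46 without the N-L+ array of replicate 1, 15 without that of replicate 2 and 14 without the N+L+ array of replicate 2. The fits with no trend (19), without dim probe sets (29), with an offset of 32 (24), with a common median (29) and with quantile normalization (22) stayed within 1.5 times. The difference between light and dark gave 1 with the block, 1 without the N-L+ arrays of number 1 of both genotypes and 144 at an unadjusted p under 0.01, and 0 with each array left out. The difference between genotypes gave 1 without the trend and 71 at an unadjusted p under 0.01, and 0 to 1 with each array left out, the 1 without the N+L+ array of replicate 1. The second probe set of GAT1_2.1 gave -0.05 to 1.61 as arrays were left out, below 0 without the N-L+ array of replicate 2 (-0.05) and without the N+L+ array of replicate 3 (-0.02). The cause of these shifts was not tested.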
